A study of Mus musculus with 8 samples.

Results

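Lenvatinib-resistant mouse tumour organoids were compared with the untreated organoids they are named for, within each of 2 lines. The libraries labelled SNU-6624-TO-LEN and SNU-6625-TO-LEN were set against SNU-6624-TO and SNU-6625-TO, so that 4 of the 8 bulk RNA-seq libraries of the series carried the comparison, with 1 library a line on each side. Organoids are 3-dimensional cultures of epithelium, and the series title describes these as hepatocellular carcinoma related to metabolic dysfunction-associated steatohepatitis. All groups are labelled wild type in genotype. The parental and the resistant libraries both carry the control label for treatment, and the lenvatinib group holds the same 2 lines after lenvatinib. The labels used here give neither the dose and duration of lenvatinib nor how resistance was selected, and they do not say whether a resistant culture was still in drug at harvest. A resistant culture of each line is thus 1 derivative, and whether libraries of a group came from separate animals or cultures is not stated. The parental libraries of lines SNU-6621 and SNU-6622, which have no resistant derivative, and the 2 lenvatinib libraries were used as references.

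Lenvatinib is a small-molecule inhibitor of the receptor tyrosine kinases for VEGF, FGF and PDGF ligands and of KIT and RET, and it is given to patients with unresectable hepatocellular carcinoma. It acts on tumour vessels and, where a tumour depends on FGF signalling, on the tumour cells themselves. Cells that outgrow kinase inhibitors are known to reactivate ERK signalling through other receptors such as EGFR, to slow their cycling, to export the drug or to change epithelial state, and the genes below are grouped by such roles.

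Total counts ran from 49.0 to 61.0 megacounts in the 4 libraries. Of 27 hepatocyte genes 10 passed edgeR's filter on low counts, as did all 22 biliary and progenitor genes. The 10 were 2 of 9 genes of secreted proteins, 2 of 9 of enzymes and 6 of 9 of transcription factors. Albumin (Alb), Cps1 and Fgb had 0 counts in all 4 libraries. The bile duct keratin gene Krt19 had 2941 and 3042 in parental and 5607 and 4160 scaled CPM in resistant libraries of SNU-6624 and SNU-6625. Scaled CPM is the count divided by the library's total in megacounts and by its TMM factor over the 8 libraries. Paired values are given in the order SNU-6624, SNU-6625 throughout. Of 13 fibroblast and stellate cell markers 9 never exceeded 3 counts in the 4 libraries, as had 6 of 11 endothelial, 7 of 11 macrophage, 7 of 10 lymphocyte, 3 of 7 neutrophil and 6 of 6 red blood cell markers. Ribosomal RNA genes held 0.102% and 0.107% of counts in the parental libraries and 0.0411% and 0.0416% in the resistant libraries. Mitochondrially encoded genes held 8.53% and 7.76% against 5.07% and 6.08%. These shares moved with the groups, and their part in the results below was not tested.

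No gene passed the test across both lines. The quasi-likelihood test of edgeR, fitted to the 6 libraries of the 2 lines with line as a term, tested 17038 genes and called 0 (0.0%) at an adjusted p under 0.05. Its smallest adjusted p was 0.247, shared by 376 genes. At an unadjusted p under 0.05 the edgeR count was 2715 genes (15.9%), of which 1380 (8.1%) were higher and 1335 (7.84%) lower in resistant organoids. DESeq2, run as an alternative on the same counts, called 1104 genes, 536 higher and 568 lower, and limma-voom and limma-trend called 0. The edgeR count depended on which resistant library was kept: leaving out that of SNU-6624 gave 5807 calls and leaving out that of SNU-6625 gave 526, each fit assuming that the lone resistant library varied like the other groups. What follows therefore describes sizes and directions in each line, and words such as higher and lower refer to measured levels.

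The description rests on genes that differed at least 2-fold in the same direction in both lines, on the ratio of scaled CPM + 1. In SNU-6624, 312 genes (1.83% of those tested) were at least 2-fold higher and 501 (2.94%) at least 2-fold lower in the resistant library. In SNU-6625 these were 1337 (7.85%) and 1649 (9.68%), so that the second line differed more widely. The lines shared 159 higher genes (0.933%), which are 51.0% of those of SNU-6624 and 11.9% of those of SNU-6625. They shared 307 lower genes (1.8%), which are 61.3% and 18.6% of the same sets. In opposite directions were 31 genes higher in SNU-6624 and lower in SNU-6625, and 19 the other way. To any extent, 5164 of the 17038 tested genes were higher and 5451 lower in both resistant libraries. These counts, with the 0.933% and 1.8% past 2-fold, are the background for the counts of list members below.

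**Figure D1:**
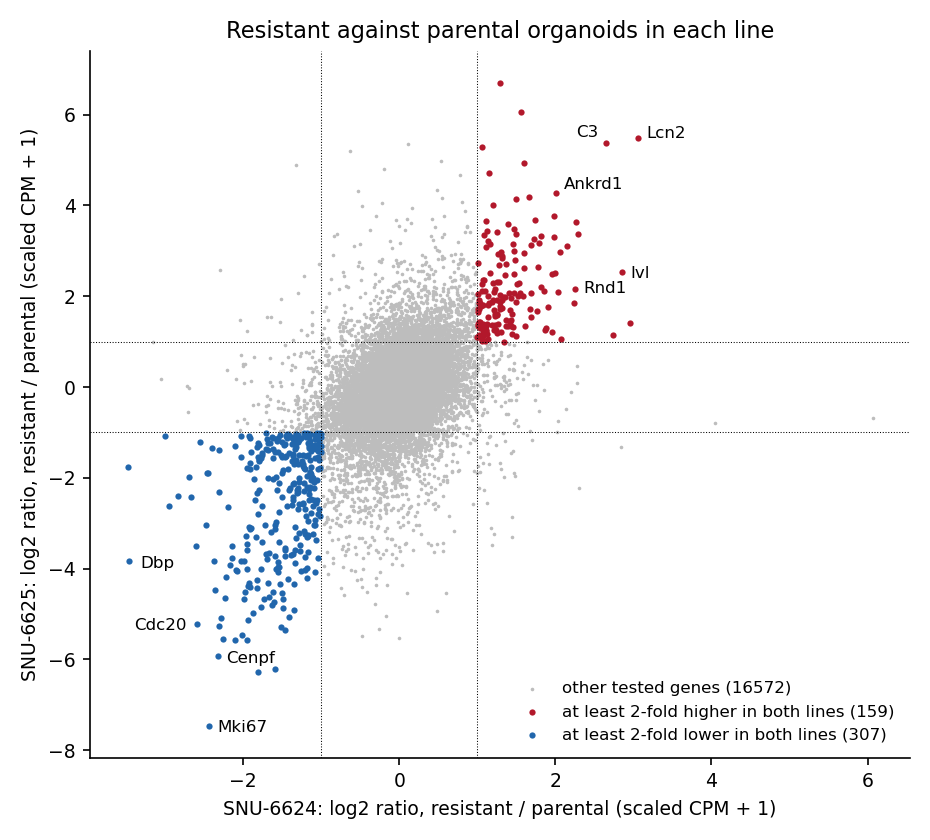
Each point is 1 of 17038 tested genes, with its log2 ratio of resistant to parental scaled CPM + 1 in SNU-6624 on the horizontal axis and in SNU-6625 on the vertical axis, and dotted lines at 2-fold. The 159 genes in the upper right and 307 in the lower left differ in the same direction in both lines, and the vertical spread exceeds the horizontal one.

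Among the shared genes the median log2 ratio was 1.29 and 1.93 by line for higher genes, and -1.41 and -2.13 for lower genes, against 0.0 and -0.0194 over all tested genes. The ratio was larger in SNU-6625 for 133 of 159 and 224 of 307. Both lines were past 4-fold for 10 higher and 26 lower genes. Just inside the 2-fold limit on the higher side were Eya2, Endod1 and Rbm3, with smaller log2 ratios of 1.0 to 1.01, and just outside it Dhx9, Nipal1 and Fam20c, at 0.99 to 1.0. On the lower side Cep70 and Fbxl12 lay inside and Bmp2, Fzd7 and Tmeff1 outside. Protein-coding genes made up 142 of the shared higher genes (89.3%) and 257 of the shared lower genes (83.7%), against 78.9% of tested genes.

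The shared genes were also placed against the other parental lines, as a description only, since the resistant values compared are those that chose the genes. Both resistant libraries exceeded both SNU-6621 and SNU-6622 for 110 of the 159 higher genes (69.2%) and were below both for 199 of the 307 lower genes (64.8%). Over all tested genes these positions held for 19.2% and 20.8%, and the choice of the genes by itself raises the shares among them. Outside all 4 parental libraries were 108 higher and 193 lower genes. The shares over all tested genes were 13.4% and 13.0%, and nothing is read from the difference, since 2 of the 4 libraries are part of the rule. For the remaining shared genes at least 1 of the 4 parental libraries had a level as far out as that of a resistant library.

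Of the cornified envelope genes, 1 (Ivl) was among the leading higher genes, and Tgm1, Sprr1a and Krt16 were shared at smaller ratios. The cornified envelope is the crosslinked protein shell of stratified squamous epithelium, built from involucrin and small proline-rich proteins by transglutaminases. Ivl, the involucrin gene (chr3:92570899-92573790 in GRCm38.p6, the build of all positions here), had 47.6 and 55 scaled CPM in the parental pair and 351 and 323 scaled CPM in the resistant pair. SNU-6621 and SNU-6622 had 47.3 and 74.4 scaled CPM, and the lenvatinib libraries 15.8 and 21.9 scaled CPM, so both resistant libraries lay above all 6 others. The ratio of scaled CPM + 1 was 7.24-fold in SNU-6624 and 5.79-fold in SNU-6625. The edgeR log2 fold change was 2.73 ± 0.21 (SE), with an adjusted p of 0.247. Sprr1a, which encodes a small proline-rich envelope protein, had 546 and 325 scaled CPM in parental and 1512 and 1363 scaled CPM in resistant libraries, again above the other 6 libraries. Tgm1, the gene of transglutaminase 1, had 41.0 and 6.47 against 125 and 29.0 scaled CPM, and here SNU-6621 parental, at 142 scaled CPM, was higher still. Krt16, a keratin gene of wounded and activated epidermis, had 12.1 and 1.13 against 30.9 and 220 scaled CPM.

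The rest of the squamous list did not follow as a block. Of 36 tested squamous and cornified envelope genes 4 were at least 2-fold higher in both lines and 0 lower, against 0.933% and 1.8% of all tested genes. To any extent 18 were higher in both, against 5164 of 17038. The list median was 0.25 and 0.81 by line on the log2 scale. Krt4 and Krt13, keratin genes of moist stratified epithelium, were higher in SNU-6624 and lower in SNU-6625: Krt13 had 110 and 21.0 scaled CPM in parental and 310 and 4.61 scaled CPM in resistant libraries. Trp63, a master regulator of stratified epithelium, had 12.9 and 1.47 against 15.4 and 0.297 scaled CPM, so its levels did not separate the groups. Grhl1, a transcription factor gene of epidermal differentiation, had log2 ratios of 0.72 and 0.79, short of 2-fold.

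The promoters of 4 of the shared higher genes are shown because they carry matches to AP-1 (TGANTCA), the site of Fos and Jun family dimers, or NF-kB (GGGA, any 4 bases, then CC). Each is reference sequence from RefSeq, build GRCm38.p6, 5′ to 3′ on the strand of the gene. It runs from 200 bases before the start listed for the promoter and ends before the nearest annotated exon. For Ivl that start lies within the gene position given above, and the 145 bases shown end next to that position. Matches to these motifs and to the TATA box (TATAAA) on either strand are in capitals.
Ivl (chr3:92573791-92573935, minus strand): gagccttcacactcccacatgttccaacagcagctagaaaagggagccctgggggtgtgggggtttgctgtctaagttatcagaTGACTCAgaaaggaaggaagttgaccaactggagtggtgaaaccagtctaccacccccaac
Sprr1a (chr3:92485896-92486081, minus strand): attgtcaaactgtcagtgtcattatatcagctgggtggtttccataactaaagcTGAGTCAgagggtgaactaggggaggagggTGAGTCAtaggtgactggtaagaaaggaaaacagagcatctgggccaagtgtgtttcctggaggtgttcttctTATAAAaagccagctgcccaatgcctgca
Cldn4 (chr5:134946935-134947134, minus strand): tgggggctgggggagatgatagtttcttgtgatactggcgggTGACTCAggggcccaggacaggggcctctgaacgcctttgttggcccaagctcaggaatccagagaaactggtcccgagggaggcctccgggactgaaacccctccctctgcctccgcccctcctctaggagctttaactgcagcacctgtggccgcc
C3 (chr17:57228137-57228336, minus strand): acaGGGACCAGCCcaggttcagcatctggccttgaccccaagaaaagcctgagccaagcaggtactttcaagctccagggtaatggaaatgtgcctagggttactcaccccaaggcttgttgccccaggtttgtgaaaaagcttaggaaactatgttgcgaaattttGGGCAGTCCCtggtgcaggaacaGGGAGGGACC
Over the 250 bases before the start, an AP-1 match on either strand was found in 15 of 118 shared higher genes with a promoter in the RefSeq table (12.7%), in 8 of 226 shared lower genes (3.54%) and in 5.13% of tested genes. A TATA box match was found in 24 of the 118 (20.3%), against 7.96% of shared lower genes and 7.49% of tested genes. NF-kB matches, which are short and common, were in 25.4%, 21.7% and 21.4%. A match describes letters and does not show that a factor binds.

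Inflammatory genes made up the largest count of shared higher genes in any 1 of the gene lists used. NF-kB is the transcription factor that induces epithelial cytokines and chemokines together with its own inhibitors. Of 29 tested NF-kB chemokine, cytokine and feedback genes, 7 were at least 2-fold higher in both lines, against 0.933% of all tested genes. To any extent 22 were higher in both, against 5164 of 17038, and 1 (Tslp) was lower in both. With upper-quartile or RLE scaling the count past 2-fold in both was 6. The list median was 0.55 and 1.67 by line. Tnfaip3 (chr10:19000910-19015410), which encodes the A20 brake on NF-kB, had 94.5 and 85.2 scaled CPM in parental and 395 and 678 scaled CPM in resistant libraries. It had 132 and 167 scaled CPM in SNU-6621 and SNU-6622 and 21.3 and 23.5 scaled CPM in the lenvatinib libraries, so that the resistant libraries were above and the lenvatinib libraries below all parental ones. Its edgeR log2 fold change was 2.54 ± 0.29 (SE), with an adjusted p of 0.247. Il1a, the gene of the alarm cytokine interleukin 1 alpha, had 32.5 and 23.9 against 131 and 336 scaled CPM.

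Chemokines that attract neutrophils were among these genes. Cxcl1 had 42.1 and 38.7 scaled CPM in parental and 102 and 303 scaled CPM in resistant libraries. Cxcl2 had 1.93 and 3.63 against 6.29 and 14.5 scaled CPM, and Cxcl5 13.4 and 26.4 against 46.3 and 261 scaled CPM. For none of the 3 were both resistant libraries above all untreated lines, since SNU-6621 had 136 scaled CPM of Cxcl1, 17.9 of Cxcl2 and 584 of Cxcl5. Cxcl16 and Csf1, the gene of the macrophage growth factor, completed the 7 with Il1a and Tnfaip3. Summed macrophage markers were 67.7 and 57.2 scaled CPM in parental and 87.1 and 176 scaled CPM in resistant libraries, and summed neutrophil markers 51.6 and 72.8 against 110 and 49.2 scaled CPM. The defining leukocyte genes Ptprc, Adgre1, C1qa, Mpo and Csf3r were at 0 counts in all 4 libraries. In bulk RNA a change in the number of cells of a type and a change in RNA per cell cannot be told apart.

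Lcn2 ranked first among shared higher genes with at least 5 scaled CPM, ordered by the smaller ratio of the 2 lines, and C3 was close behind it. Lcn2 (chr2:32384637-32387739) encodes lipocalin 2, an iron-withholding antimicrobial protein, and had 7.15 and 4.88 scaled CPM in parental and 66.9 and 264 scaled CPM in resistant libraries. The ratios of scaled CPM + 1 were 8.34-fold and 45.1-fold. The edgeR log2 fold change was 4.54 ± 0.72 (SE), with an adjusted p of 0.247. C3, the central complement component, had 4.30 and 1.47 against 32.1 and 102 scaled CPM. On scaled CPM + 1 its ratios were 6.25-fold and 41.7-fold. Neither gene set the resistant cultures apart from all untreated lines, since SNU-6621 parental had 420 scaled CPM of Lcn2 and 438 of C3. Other acute phase genes went the other way. Saa1, a serum amyloid gene, had 48.7 and 49.9 against 10.6 and 0.0743 scaled CPM, and C4bp, an inhibitor of complement, 15.9 and 34.2 against 3.97 and 4.74 scaled CPM. Of 20 tested acute phase and antimicrobial genes, 2 were at least 2-fold higher and 2 at least 2-fold lower in both lines. The shares over all tested genes were 0.933% and 1.8%.

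**Figure D2:**
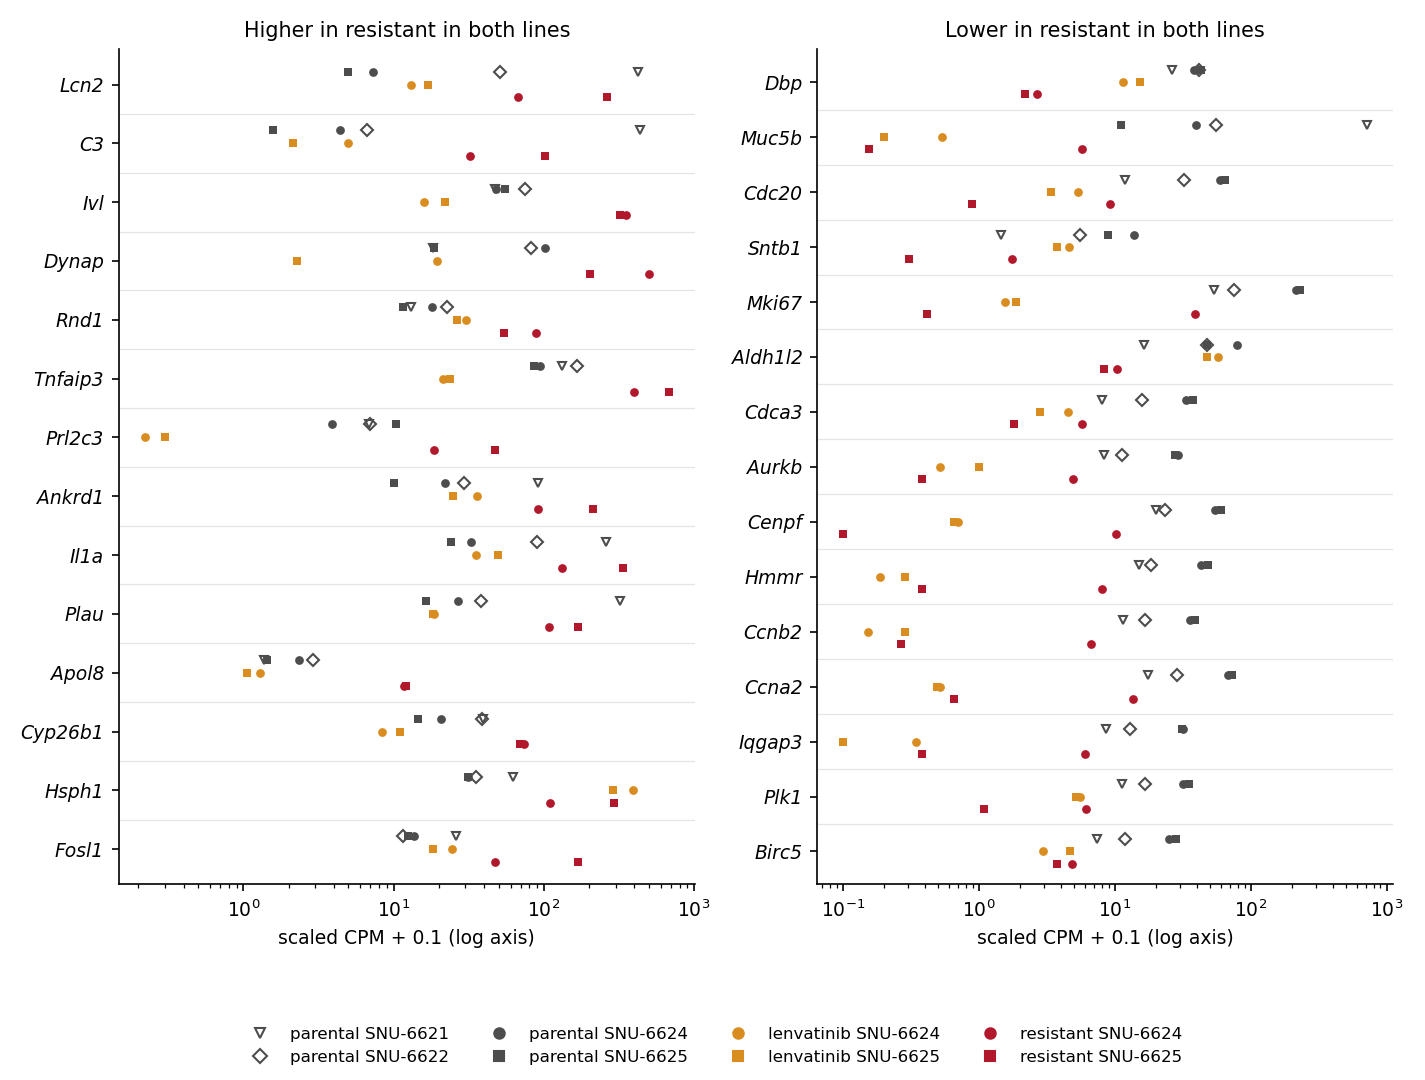
Scaled CPM + 0.1 on a log axis for named genes with the largest shared ratios, 14 higher and 15 lower in resistant organoids, 1 point a library, with filled circles for SNU-6624, filled squares for SNU-6625 and open symbols for the 2 other parental lines. On the left both resistant libraries lie above the parental libraries of their own lines for each gene, while SNU-6621 passes at least 1 of them for Lcn2, C3, Ankrd1, Il1a and Plau. On the right both resistant libraries lie below all 4 parental libraries except for Sntb1 and SNU-6621.

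Genes of the EGFR and ERK route were next. Lenvatinib does not inhibit EGFR, whose ligands include amphiregulin, and ERK activity induces both transcription factors and phosphatases that feed back on it. Areg, the amphiregulin gene, had 92.6 and 98.1 scaled CPM in parental and 273 and 419 scaled CPM in resistant libraries, with 75.2 to 88.7 scaled CPM in the other parental lines and 191 and 136 in the lenvatinib libraries. Its edgeR log2 fold change was 1.85 ± 0.31 (SE; adjusted p of 0.247). Ereg, the epiregulin gene, had log2 ratios of 0.73 and 1.47, and Egfr itself had 72.2 and 66.0 against 98.3 and 306 scaled CPM. Of 18 tested genes of EGFR family receptors, MET, their ligands and inhibitors, 1 was at least 2-fold higher in both lines. To any extent 9 were higher and 2 lower in both. Over all 17038 tested genes 0.933% were at least 2-fold higher, and 5164 were higher and 5451 lower to any extent.

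Of 16 tested genes of ERK output, 2 were at least 2-fold higher in both lines and 0 lower. The shares over all tested genes were 0.933% and 1.8%. Fosl1, which encodes the AP-1 protein FRA1, had 13.5 and 12.3 scaled CPM in parental and 47.3 and 169 scaled CPM in resistant libraries, above the 25.7 scaled CPM of SNU-6621. Dusp5, the gene of a nuclear ERK phosphatase, had 117 and 79.2 against 293 and 574 scaled CPM. Other outputs did not share this. Spry4, a feedback inhibitor, had 19.6 and 22.4 against 11.1 and 13.4 scaled CPM, and Spred1, Etv4 and Ier3 were also lower in both lines, while Myc had log2 ratios of 0.15 and 0.17. The list median was 0.14 and 0.60. Among AP-1 genes outside this list Jun had 492 and 305 against 841 and 680 scaled CPM, and Fos 1575 and 1528 against 1528 and 674 scaled CPM, so the family did not move as one.

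The receptors that lenvatinib inhibits were little expressed. Of 11 such receptor genes 6 passed the filter on low counts, and Kdr, the main VEGF receptor gene of vessels, had 0 counts in all 8 libraries. On scaled CPM + 1, none of the 6 reached 2-fold in the same direction in both lines, against 0.933% and 1.8% of all tested genes. Ret had 13.5 and 6.89 scaled CPM in parental and 2.67 and 3.83 scaled CPM in resistant libraries, and Fgfr3 8.96 and 2.68 against 2.06 and 2.23 scaled CPM. Flt1 had 0.201 and 0.0806 against 0.295 and 3.83 scaled CPM, near the floor of 3 counts (0.0492 to 0.0612 CPM) except in resistant SNU-6625. Flt4 had 1.22 and 0.444 against 2.48 and 1.36 scaled CPM. These levels were more than 2-fold higher in both lines, but at such low levels the added 1 gave log2 ratios of 0.65 and 0.71. The edgeR log2 fold change of Flt4 was 1.26 ± 0.52 (SE), with an adjusted p of 0.334. The growth factor gene Fgf15, a hormone of ileum that signals through FGFR4, was the 1 ligand of 15 tested that was at least 2-fold lower in both lines, with 9.11 and 3.02 against 2.44 and 0.483 scaled CPM.

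Drug export and metabolism showed isolated genes. Abcb1b, 1 of the 2 mouse genes for the efflux pump P-glycoprotein, had 8.13 and 21.1 scaled CPM in parental and 20.1 and 106 scaled CPM in resistant libraries. SNU-6621 parental, at 31.9 scaled CPM, exceeded the resistant library of SNU-6624. Its neighbour Abcb1a had 42.5 and 245 against 60.8 and 221 scaled CPM. Of 8 tested efflux pumps Abcb1b was the 1 past 2-fold in both lines, against 0.933% of all tested genes on the higher side. Cyp3a13, a cytochrome P450 gene, had 43.9 and 108 against 93.7 and 237 scaled CPM, and Ces2a, a carboxylesterase gene, 3.21 and 181 against 0.531 and 3.49 scaled CPM. The parental level of Ces2a was set apart in SNU-6625 from the other lines, which had 3.21 to 11.1 scaled CPM.

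Genes of mitosis made up the largest count of shared lower genes in any 1 list. These genes are switched on in G2 and M phase and encode the spindle, its checkpoint and the kinases that drive division. Of 30 tested G2/M genes 29 were at least 2-fold lower in both lines and all 30 were lower to any extent in both, against 1.8% at least 2-fold lower among all tested genes. The median log2 ratio was -1.93 and -4.65 by line, or -4.61 in SNU-6625 with the 6 genes at 0 counts there set to the floor of 3 counts. Kif23, a kinesin gene of cytokinesis, was the exception to the 2-fold rule, with a log2 ratio of -0.97 in SNU-6624. Mki67, the proliferation antigen gene (chr7:135689784-135716450), had 214 and 230 scaled CPM in parental and 38.8 and 0.316 scaled CPM in resistant libraries. SNU-6621 and SNU-6622 had 53.8 and 74.4 scaled CPM, and the lenvatinib libraries 1.45 and 1.77 scaled CPM. The 2 resistant cultures thus differed more from each other than the parental lines did, and its edgeR log2 fold change of -4.33 ± 1.96 (SE) had an adjusted p of 0.358.

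The same split ran through the group. Cdc20, the activator of the anaphase-promoting complex, had 59.6 and 64.9 scaled CPM in parental and 9.05 and 0.780 scaled CPM in resistant libraries. Plk1, the polo kinase of mitotic entry, had 31.6 and 35.0 against 6.0 and 0.985 scaled CPM. Of the 6 genes at 0, Cenpf, Ccnb1, Bub1 and Bub1b, genes of the kinetochore, cyclin B1 and the spindle checkpoint, had 508, 483, 328 and 303 counts in the resistant library of SNU-6624 and 0 counts in that of SNU-6625, where 3 counts are the floor. In the parental libraries of the 2 lines Cenpf had 3240 and 2985 counts. Birc5, the survivin gene, was the mildest in SNU-6625 after Kif23, with 25.1 and 28.0 against 4.72 and 3.66 scaled CPM, and its edgeR log2 fold change was -2.65 ± 0.34 (SE; adjusted p of 0.247).

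Genes of DNA replication differed less in SNU-6624. Of 30 tested G1/S genes 1 was at least 2-fold lower in both lines, against 1.8% of all tested genes. To any extent 18 were lower and 0 higher in both, against 5451 and 5164 of 17038. The median log2 ratio was -0.10 and -2.28 by line. Tk1, thymidine kinase, was the gene past 2-fold, with 34.8 and 33.1 against 15.6 and 4.51 scaled CPM. Mcm5, a subunit of the replicative helicase, had 34.2 and 34.9 scaled CPM in parental, 36.6 in the resistant library of SNU-6624 and 0.539 in that of SNU-6625. Rrm2, ribonucleotide reductase, had 106 and 95.7 against 75.6 and 3.55 scaled CPM. The resistant SNU-6624 library therefore had replication genes near their parental level beside lower mitotic genes, and the resistant SNU-6625 library was low in both. The difference between lines has 1 library a cell and was not tested.

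**Figure D3:**
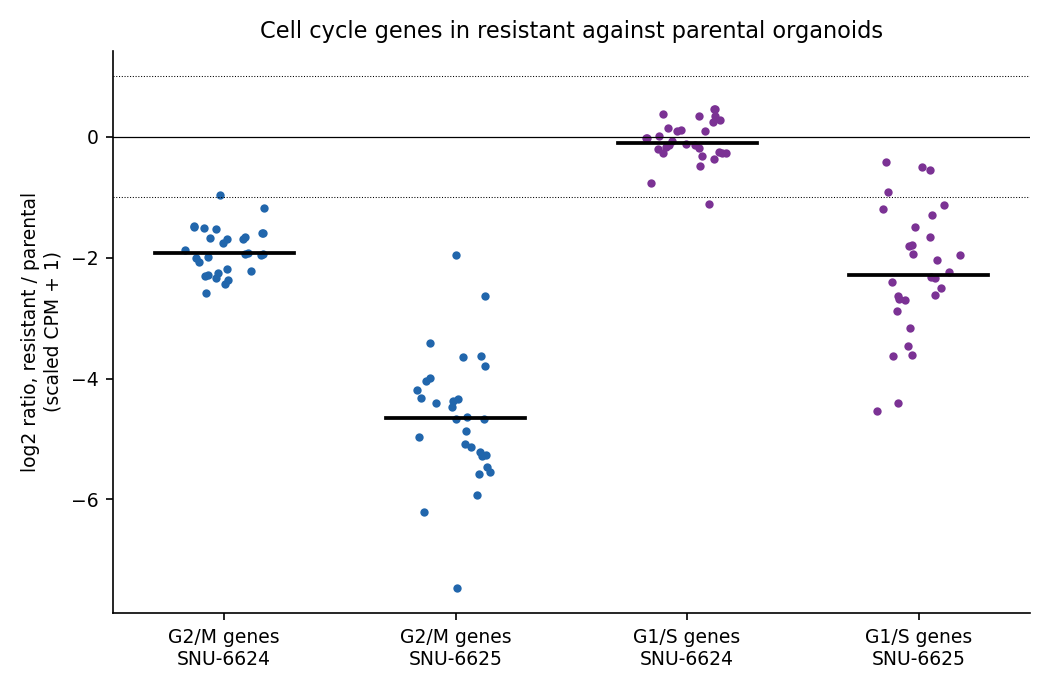
Log2 ratio of resistant to parental scaled CPM + 1 for 30 G2/M genes and 30 G1/S genes in each line, 1 point a gene, with black bars at the medians and dotted lines at 2-fold. G2/M medians are -1.93 and -4.65, and the G1/S median is near 0 and -2.28 by line.

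The promoters of 3 shared lower mitotic genes are shown because they carry CCAAT boxes (CCAAT), bound by the factor NF-Y, and the CHR element (TTTGAA), through which complexes that silence and activate mitotic genes are known to act. Sequence source, strand and limits are as above, with matches to these 2 motifs on either strand in capitals.
Cdc20 (chr4:118437353-118437543, minus strand): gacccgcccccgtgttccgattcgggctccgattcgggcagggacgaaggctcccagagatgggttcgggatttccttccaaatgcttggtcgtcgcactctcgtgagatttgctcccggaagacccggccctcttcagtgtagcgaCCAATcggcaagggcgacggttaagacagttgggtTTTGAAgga
Ccnb2 (chr9:70421555-70421754, minus strand): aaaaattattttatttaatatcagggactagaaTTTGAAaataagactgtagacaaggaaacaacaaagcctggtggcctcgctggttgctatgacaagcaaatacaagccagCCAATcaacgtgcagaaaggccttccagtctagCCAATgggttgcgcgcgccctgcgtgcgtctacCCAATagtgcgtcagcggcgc
Kif11 (chr19:37376182-37376381, plus strand): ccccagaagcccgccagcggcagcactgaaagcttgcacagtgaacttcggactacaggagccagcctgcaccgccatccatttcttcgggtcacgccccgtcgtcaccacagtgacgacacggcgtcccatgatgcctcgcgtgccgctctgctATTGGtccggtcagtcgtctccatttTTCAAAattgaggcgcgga
Over the 250 bases before the start, a CCAAT match on either strand was found in 20 of 23 G2/M genes with a promoter in the table (87.0%), in 107 of 226 shared lower genes (47.3%), in 35.6% of shared higher genes and in 36.6% of tested genes. A CHR match was found in 7 of the 23 (30.4%), in 17.3% of shared lower genes, in 12.7% of shared higher genes and in 11.5% of tested genes.

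Genes linked to arrest were mixed. Of 7 tested CDK inhibitor genes 2 were higher and 3 lower to any extent in both lines and 0 passed 2-fold in both, with medians of -0.06 and -0.19. Of 26 tested p53 target genes 19 were higher to any extent in both lines, 3 were lower in both and 1 was at least 2-fold higher in both. By comparison, 5164 of all 17038 tested genes were higher to any extent, 5451 lower and 0.933% at least 2-fold higher. The list median was 0.41 and 0.94. Plk2, a stress-induced polo kinase gene, was past 2-fold, with 352 and 205 scaled CPM in parental and 910 and 1343 scaled CPM in resistant libraries. Cdkn1a, the gene of the CDK inhibitor p21, had 235 and 133 against 367 and 482 scaled CPM, and Mdm2, the p53 ubiquitin ligase gene, 144 and 117 against 226 and 281 scaled CPM. Gadd45a, Ddb2 and Rrm2b, stress and repair targets of p53, were lower in both lines. Ddb2 had log2 ratios of -0.28 and -0.82.

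Several output genes of the circadian clock were lower, and the core gene Arntl was higher. The clock is a feedback loop in which BMAL1 and CLOCK drive Per, Cry, Dbp, Tef and Nr1d genes, whose products act back on it. Dbp (chr7:45705100-45710203) had 38.3 and 42.9 scaled CPM in the parental pair and 2.58 and 2.06 scaled CPM in the resistant pair, below SNU-6621 and SNU-6622 (26.3 and 41.4) and the lenvatinib libraries (11.4 and 15.2). On scaled CPM + 1 it was 11-fold and 14.3-fold lower, which ranked it first among shared lower genes by the smaller ratio. The edgeR log2 fold change was -4.12 ± 0.27 (SE), with an adjusted p of 0.247. Arntl, the BMAL1 gene, had 10.5 and 9.70 against 26.9 and 68 scaled CPM, also outside the other 6 libraries. Per3 had 88.2 and 83.7 against 14.1 and 35.6 scaled CPM, Ciart 10.1 and 7.32 against 3.40 and 2.21 scaled CPM, and Tef 128 and 106 against 54.3 and 51.9 scaled CPM. Of 18 tested clock genes 1 was at least 2-fold higher and 4 lower in both lines, against 0.933% and 1.8% of tested genes. To any extent 6 were higher and 8 lower, against 5164 and 5451 of 17038. The list medians had opposite signs, -0.74 and 0.42. Among the 10 core clock genes 4 were higher and 3 lower in both lines. Nr1d2 was just outside, with log2 ratios of -1.53 and -0.96.

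Per1 and Per2 did not follow Per3. Per1 had 99.7 and 91.7 against 52.8 and 171 scaled CPM, lower in resistant SNU-6624 and higher in resistant SNU-6625. The time of harvest is not in the labels, so a difference in clock phase between libraries and a difference between groups cannot be told apart.

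**Figure D4:**
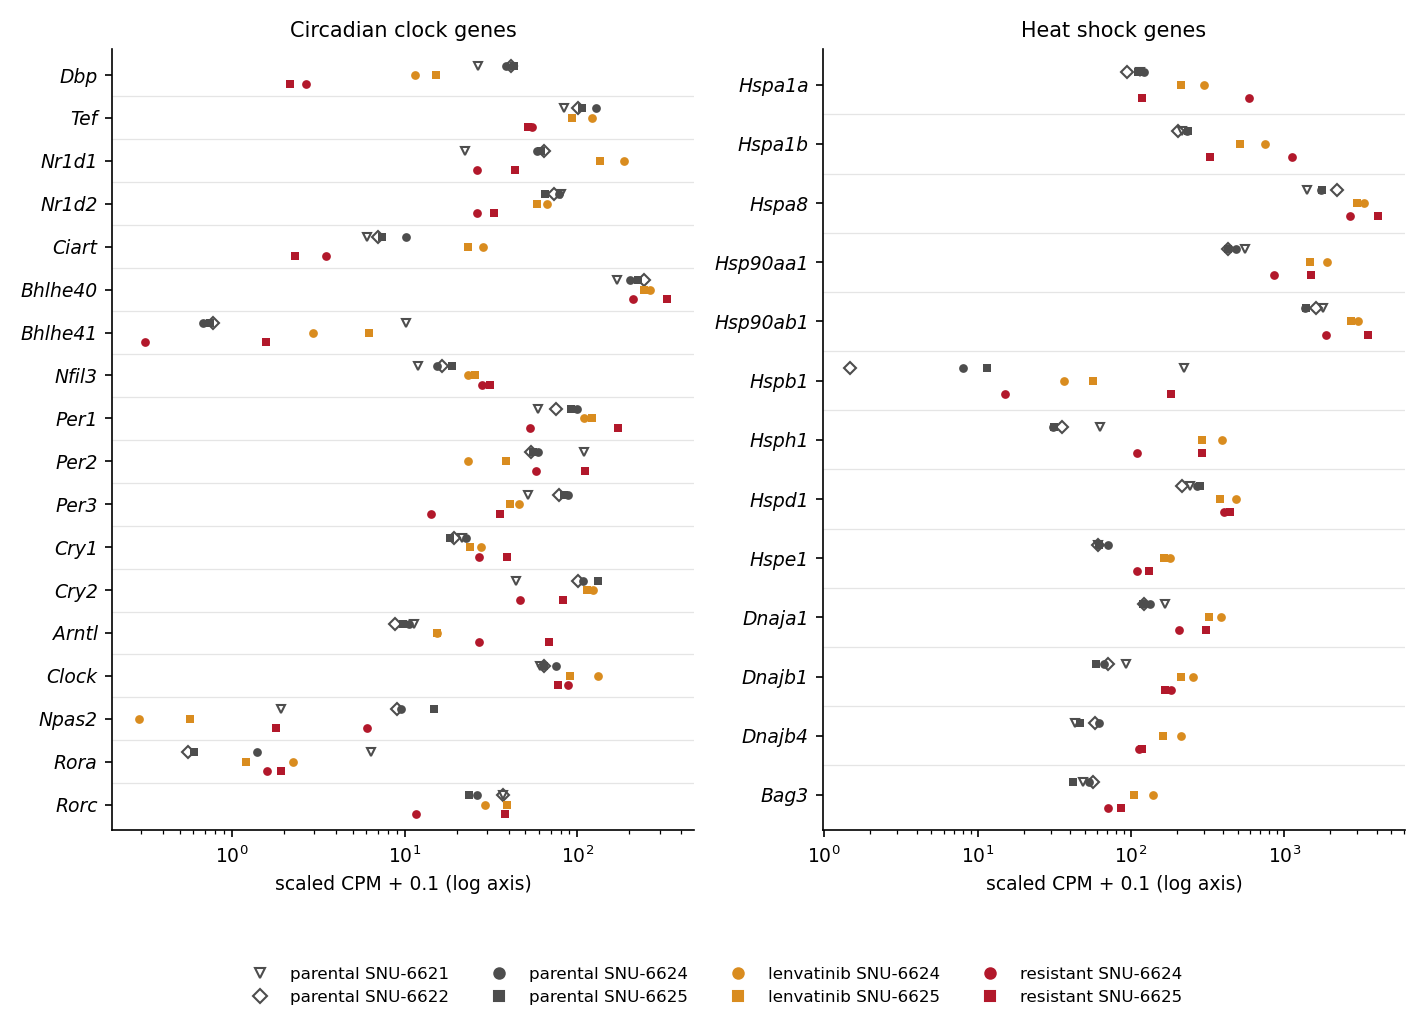
Scaled CPM + 0.1 on a log axis for clock genes (left) and heat shock genes (right) with at least 5 scaled CPM in some library, 1 point a library, symbols as in the plot of the leading genes. Dbp is lowest and Arntl highest in both resistant libraries, and heat shock genes are higher in resistant and lenvatinib libraries than in the parental libraries of the same lines.

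Heat shock chaperones, which refold proteins under HSF1 control, were higher as a group. All 14 tested genes were higher to any extent in both lines and 2 were at least 2-fold higher in both, with medians of 0.73 and 1.34. The background over all tested genes was 5164 of 17038 to any extent and 0.933% past 2-fold. With scaling by library size alone or by the upper quartile 13 of the 14 were higher in both. Hsph1, an HSP110 chaperone gene (chr5:149616843-149636498), had 31.1 and 31.3 scaled CPM in parental and 110 and 292 scaled CPM in resistant libraries, and 394 and 289 scaled CPM in the lenvatinib libraries. Dnajb1, an HSP40 cochaperone gene, had 67.0 and 58.8 against 182 and 167 scaled CPM in the same lines, with an edgeR log2 fold change of 1.47 ± 0.15 (SE; adjusted p of 0.247). Hsp90aa1 had 482 and 428 against 854 and 1496 scaled CPM. Hspa1a and Hspa1b, near-identical HSP70 genes whose reads may be shared, differed by line: Hspa1b had 233 and 237 against 1132 and 330 scaled CPM. Motif letters of the heat shock element (GAANNTTC) were in 5 of 11 promoters of the list (45.5%), against 5.18% of tested genes. Among shared genes with a promoter they were in 2.54% of higher and 6.64% of lower ones, so the list's share did not extend to the shared higher genes.

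Cell shape, protease and junction genes were also represented. Rnd1 encodes an atypical small GTPase that loosens adhesion. It had 17.9 and 11.4 scaled CPM in parental and 89.2 and 54.3 scaled CPM in resistant libraries, above the other 6. Its ratios of scaled CPM + 1 were 4.77-fold and 4.47-fold. Its edgeR log2 fold change was 2.29 ± 0.20 (SE; adjusted p of 0.247). Rhov, another atypical small GTPase gene, had 23.2 and 8.37 against 67.4 and 95.3 scaled CPM. Ankrd1, a target of the YAP coactivator, had 21.9 and 10 against 90.7 and 212 scaled CPM. Of 13 tested YAP targets 8 were higher and 0 lower to any extent in both lines, with medians of 0.59 and 0.92. At least 2-fold higher in both were 2 of them, against 0.933% of all tested genes. They were Ankrd1 and Cldn4, and Cldn4 is also counted in the junction list below. Ccn2, another YAP target, differed by line, with 127 and 219 against 234 and 80.9 scaled CPM. Plau, the urokinase gene, had 26.8 and 16.2 against 108 and 169 scaled CPM, with 320 in SNU-6621 parental. Serpinb2, an inhibitor of urokinase, had 0.603 and 0.101 against 3.74 and 72.2 scaled CPM. Cldn4, a tight junction claudin gene, had 263 and 216 against 739 and 1497 scaled CPM. To any extent 17 of 22 tested junction genes were higher and 1 lower in both lines, against 5164 and 5451 of 17038. The 17 became 15 with scaling by library size alone or RLE and 14 with the upper quartile.

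Further genes of the leading set have varied roles. Dynap, a gene linked to AKT activation, had 102 and 18.6 scaled CPM in parental and 504 and 203 scaled CPM in resistant libraries. Cyp26b1, which degrades retinoic acid, had 20.4 and 14.3 against 74.1 and 69.7 scaled CPM, and Apol8 2.24 and 1.33 against 11.6 and 12.0 scaled CPM. For each of these 3 genes both resistant libraries were above the other 6. Prl2c3, a prolactin family gene, had 3.80 and 10.2 against 18.6 and 47.0 scaled CPM, but its reads may be shared with the near-identical Prl2c2. Gml and Gml2, a pair of Ly6 family genes, had at most 0.403 scaled CPM in parental libraries and 2.97 to 13.7 scaled CPM in resistant libraries, and may share reads too.

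Progenitor and Notch genes included a few shared ones. Sox9, a transcription factor gene of bile duct and progenitor cells, had 32.7 and 45.2 scaled CPM in parental and 76.9 and 195 scaled CPM in resistant libraries, all above SNU-6621 and SNU-6622, at 4.17 and 11. Spp1, the osteopontin gene, had 3.53 and 11 against 34.2 and 31.1 scaled CPM. Nrarp, a direct Notch target, had 67.3 and 62.3 against 147 and 148 scaled CPM, with log2 ratios of 1.11 and 1.23 and an edgeR log2 fold change of 1.18 ± 0.20 (SE; adjusted p of 0.247). Hes1, another target, had log2 ratios of 0.82 and 0.36. Of 22 tested biliary and progenitor genes 12 were higher to any extent in both lines and 2 at least 2-fold, with medians of 0.18 and 1.0. Among all 17038 tested genes these counts were 5164 and 159.

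Lipid synthesis genes were lower in part. Scd1, the desaturase gene that makes oleate, had 86.1 and 23.3 scaled CPM in parental and 21.3 and 1.49 scaled CPM in resistant libraries. SNU-6621 and SNU-6622 parental had 3.40 and 2.03 scaled CPM, below the resistant library of SNU-6624. Acss2, which activates acetate, had 136 and 134 against 50.1 and 37.5 scaled CPM, above the 23.8 scaled CPM of SNU-6621 parental, with an edgeR log2 fold change of -1.63 ± 0.18 (SE; adjusted p of 0.247). Fads1 and Fads2, desaturase genes of polyunsaturated fatty acids, were also at least 2-fold lower in both lines. Hilpda, an inhibitor of fat breakdown in lipid droplets, was higher, with 21.0 and 14.6 against 52.8 and 52.9 scaled CPM. Of 27 tested genes of fatty acid synthesis and droplets, 1 was at least 2-fold higher and 4 at least 2-fold lower in both lines. The shares over all tested genes were 0.933% and 1.8%. Cholesterol synthesis and uptake genes differed by line, with medians of -0.07 and -1.29, and 0 of 26 passed 2-fold in both.

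Single genes of mucus and of mitochondrial folate metabolism were among the leading shared lower ones, without the rest of their lists. Of 7 tested mucin and trefoil genes 1 was at least 2-fold lower in both lines, against 1.8% of all tested genes. Muc3, a mucin gene outside that list, was lower too, with 1.66 and 22.7 against 0.197 and 3.21 scaled CPM. Of 16 tested one-carbon genes 1 was at least 2-fold lower in both, against the same 1.8%. To any extent 5 were higher and 3 lower, against 5164 and 5451 of 17038, and the medians were 0.20 and -0.16. Muc5b, a gel-forming mucin gene, had 39.1 and 11 scaled CPM in parental and 5.59 and 0.0557 scaled CPM in resistant libraries. SNU-6621 parental had 718 scaled CPM, and the lenvatinib libraries 0.430 and 0.101. Aldh1l2, the mitochondrial enzyme that oxidizes formyl-folate, had 79.2 and 47.4 against 10.2 and 8.21 scaled CPM, while the lenvatinib libraries, at 57.0 and 47.4, were near the parental level. Its edgeR log2 fold change was -2.75 ± 0.19 (SE; adjusted p of 0.247). Sntb1, a syntrophin gene, had 13.8 and 8.85 against 1.65 and 0.204 scaled CPM. Entpd2 and Entpd3, ectonucleotidase genes, went in opposite directions, with 49.0 and 70.1 against 18.9 and 33.8 scaled CPM for Entpd2 and 11.8 and 11.6 against 39.9 and 40.6 scaled CPM for Entpd3.

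The lenvatinib libraries share their parental controls with the resistant ones, so only the values of each are set side by side. For Ivl, Sprr1a, Tgm1, Tnfaip3, Cxcl5 and Dynap the lenvatinib libraries were at or below the parental libraries of their lines while the resistant libraries were above them. For Prl2c3 they had 0.120 and 0.202 scaled CPM. For Areg, Cldn4, Dusp5, Entpd3 and all 14 heat shock genes the lenvatinib libraries lay above their parental libraries, as the resistant ones did. Ciart had 28.2 and 23.1 scaled CPM in the lenvatinib libraries, above parental, and was below parental in resistant libraries. All 30 G2/M genes were below parental in both lines in the lenvatinib libraries too.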

How the data were processed

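RNA-seq counts of 8 libraries of mouse liver tumour organoids were used, and the 4 parental and resistant libraries of SNU-6624 and SNU-6625 carried the comparison. The deposited values are whole-number counts per gene. Per the labels, RNA was purified with Trizol and a column and libraries were made with a stranded mRNA kit. Per the submitters' processing notes, the tools were HISAT2 2.1.0 and Bowtie2 2.3.4.1, StringTie 2.1.3b, Trimmomatic 0.38 and FastQC 0.11.7, with build mm10. How reads were counted, and with what strand setting, is not given in the sources used, so antisense partners or near-identical copies can share reads.

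Counts were scaled by TMM over the 8 libraries. Genes kept by edgeR's filter on low counts were tested with edgeR 4.0.16 (R 4.3.3) in a quasi-likelihood fit of the 6 libraries of the 2 lines, with line as a block, and Benjamini-Hochberg adjustment over all 17038 genes. DESeq2 1.42.0, limma 3.58.1 and other scalings, filters and offsets were alternatives. The fit had 2 residual degrees of freedom. An exact permutation test of 2 against 2 libraries that ignores line cannot go below p = 0.333, and swaps within lines allow fewer arrangements. P-values measure only the spread between these libraries, which may be technical. Line numbers pair the libraries because the labels give the same line; deviations of same-line parental and resistant libraries correlated with r = 0.281 across genes. The script was tested on simulated data.

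Line ratios are log2(scaled CPM + 1), which understates changes of low genes. Named genes were the 15 largest shared differences in each direction with at least 5 scaled CPM, up to 4 shared genes a list with at least 1 scaled CPM, lenvatinib's target receptors and cell type markers. A few genes these rules select are not reported here. Other list members were named after their values were seen. Members and lists were chosen with earlier results of these data known. Promoters and positions come from RefSeq tables of GRCm38.p6, where 45675 of 45777 genes matched a position.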

Additional observations from a re-analysis of the deposited data

Results flagged for a closer look

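In the 4 parental libraries, 1 library stood far from the other 3 for 17 named genes, by Dixon's criterion, which chance meets in about 1 in 20 groups. SNU-6621 was high for Lcn2 (420 scaled CPM), C3 (438 scaled CPM), Plau (320 scaled CPM), Cxcl5 (584 scaled CPM), Spp1 (130 scaled CPM) and Muc5b (718 scaled CPM). It was also high for Hsph1 (62.4 scaled CPM), Fosl1 (25.7 scaled CPM), Nrarp (103 scaled CPM), Fads1 (144 scaled CPM), Entpd3 (73.3 scaled CPM), Flt1 (38.6 scaled CPM) and Flt4 (12.8 scaled CPM), and low for Acss2 (23.8 scaled CPM). SNU-6622 was high for Saa1 (305 scaled CPM). SNU-6625 was high for Ces2a (181 scaled CPM) and Agr2 (32.9 scaled CPM), genes of drug metabolism and secretory cells, so its low resistant levels of both start from a parental level that no other line shared.

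The median log2 ratio of 8 gene lists had opposite signs in the 2 lines, and with 1 library a cell the difference was not tested. It was positive in SNU-6624 and negative in SNU-6625 for intestinal epithelium genes (0.33 and -1.06), Wnt targets (0.17 and -0.24), cyclins, CDKs and inhibitors (0.15 and -0.80), one-carbon metabolism (0.20 and -0.16) and purinergic genes (0.74 and -0.61). It was negative in SNU-6624 and positive in SNU-6625 for NRF2 and glutathione genes (-0.19 and 0.78), clock genes (-0.74 and 0.42) and interferon response genes (-0.69 and 0.32).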

How the results depend on the processing

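The edgeR count of 0 calls was also 0 with no replicate block (2653 genes at an unadjusted p under 0.05), with the 4 parental and resistant libraries alone (1664), with all 8 libraries (2691) and in limma-voom and limma-trend. DESeq2 called 1104 genes. Leaving out 1 library at a time gave 0 to 5807 calls. The shared counts of 159 higher and 307 lower genes, 108 and 193 of them outside all 4 parental libraries, depended most on the offset: they were 397, 745, 241 and 446 with an offset of 0.1 scaled CPM and 80, 116, 55 and 77 with an offset of 5. Other scalings and filters gave 129 to 159 higher and 230 to 326 lower genes. With scaling by library size alone the median over all genes was 0.01 in SNU-6624 and -0.15 in SNU-6625. Of 74 named genes DESeq2 put 61 past the threshold, against 1104 of all 17038 tested genes. No direction of a named gene reversed in the settings run. Most of the 74 were chosen by their ratios in these same libraries. That choice raises the count and favours a stable direction, so neither is read as support. Shared counts need both lines, so no library could be left out of them. Depth limits genes near 3 counts.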

Other observations

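Gene families known from the 2-cell embryo and a subset of embryonic stem cells were counted in both parental libraries of the comparison and were nearly absent from the resistant ones. These families were chosen after their values were seen, are multi-copy, so that copies can share reads, and were not tested as groups. Summed over 8 Zscan4 genes, the parental libraries had 319 and 248 counts, the resistant libraries 2 and 4 counts and the lenvatinib libraries 3 and 0 counts, while SNU-6621 and SNU-6622 had 88 and 29 counts. For the 2 Tcstv genes the sums were 169 and 125 parental counts against 0 and 0 resistant counts. The 5 Tdpoz genes had 124 and 70 against 2 and 6 counts, and Zfp352 121 and 91 against 0 and 3 counts. The summed Usp17l counts did not follow, at 282 and 206 parental counts against 109 and 303 resistant counts. Most of the resistant sum came from Usp17la, with 32 and 30 parental against 103 and 249 resistant counts. Usp17lc had 149 and 85 against 0 and 8 counts, Usp17ld 69 and 50 against 0 and 26. Usp17lb had 14 and 29 against 3 and 8 counts, and Usp17le 18 and 12 against 3 and 12. Duxf genes had at most 2 counts in any library.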
